A study of Mus musculus with 11 samples.

Results

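Expression of 10 epithelial genes was examined in orthotopic pancreatic tumours grown in mice with or without protein kinase N2 (PKN2) in the host. The genes were Mal2, Epcam, Cdh1, Krt7, Krt8, Krt18, Krt19, Cldn4, Cldn7 and Esrp1, which are 10 of 54232 listed genes and of the 16536 that passed the filter on low counts. All 10 passed it. Mal2 was selected on its fall in the KO columns of this same table, so its difference between genotypes is given as a description with no test. The other 9 were listed with it as genes of carcinoma epithelium, and the question was whether Mal2 fell further than they did.

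RNA was sequenced from 11 tumours of female C57BL/6 mice, 6 from Pkn2 fl/fl hosts (KO, replicates A to F) and 5 from Pkn2 +/+ hosts (WT, replicates A to E). All hosts were heterozygous for RosaCreERT2, a tamoxifen-activated Cre recombinase expressed throughout the body, and all received the same tamoxifen course as adults. Each pancreas was injected with 1000 TB32048 cells in DMEM and Matrigel. TB32048 is a single carcinoma line from a pancreatic tumour of a female mouse, and it kept wild-type Pkn2, so that only host cells lost the kinase. Fewer carcinoma cells in a tumour piece and less RNA per carcinoma cell cannot be told apart in such bulk samples.

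Keratins 7, 8, 18 and 19 form the intermediate filaments of simple epithelium, with the type II chains KRT7 and KRT8 pairing with the type I chains KRT18 and KRT19. E-cadherin, encoded by Cdh1, holds neighbouring cells together at adherens junctions, while EPCAM is a surface adhesion protein that also binds claudin 7. Claudins 4 and 7 are tight junction proteins, and ESRP1 is a splicing factor that maintains epithelial isoforms. MAL2 is a membrane protein of the MAL family that works in transport to the apical surface and binds proteins of the TPD52 family.

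Promoter sequences were printed for 4 of these genes because the E-box CACCTG, the letters to which the epithelial repressors SNAI1, SNAI2, ZEB1 and ZEB2 are known to bind, recurred among them. RefSeq windows on GRCm38.p6, from 250 bases before to 50 bases after a transcription start, were listed for 6 of the 10 genes, namely Cldn4, Cldn7, Epcam, Krt7, Krt8 and Krt18. Mal2, Cdh1, Krt19 and Esrp1 had no entry. CACCTG or its reverse complement CAGGTG, which do not overlap each other, was found in 6 of the 7 windows and in all 6 genes, against 20.2% of all 32851 promoters. Cldn4, one window of Cldn7, and Epcam held 2 copies each, and Krt7, Krt8 and Krt18 held 1. In the lines below, capitals mark the E-box on either strand.
Cldn4 promoter, chr5:134946885-134947184, minus strand: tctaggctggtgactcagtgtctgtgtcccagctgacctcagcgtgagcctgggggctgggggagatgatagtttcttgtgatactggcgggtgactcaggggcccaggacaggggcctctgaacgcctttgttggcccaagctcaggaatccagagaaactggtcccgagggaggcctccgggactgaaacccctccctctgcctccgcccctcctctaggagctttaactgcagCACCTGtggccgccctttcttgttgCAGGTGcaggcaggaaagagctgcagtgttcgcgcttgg
Cldn7 promoter, chr11:69965171-69965470, plus strand: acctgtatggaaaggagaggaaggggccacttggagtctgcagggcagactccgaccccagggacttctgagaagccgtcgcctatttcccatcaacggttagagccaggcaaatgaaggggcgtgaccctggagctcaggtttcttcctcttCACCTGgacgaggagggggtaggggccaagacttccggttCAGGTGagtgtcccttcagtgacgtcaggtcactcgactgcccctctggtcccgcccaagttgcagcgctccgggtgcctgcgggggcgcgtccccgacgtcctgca
Epcam promoter, chr17:87635729-87636028, plus strand: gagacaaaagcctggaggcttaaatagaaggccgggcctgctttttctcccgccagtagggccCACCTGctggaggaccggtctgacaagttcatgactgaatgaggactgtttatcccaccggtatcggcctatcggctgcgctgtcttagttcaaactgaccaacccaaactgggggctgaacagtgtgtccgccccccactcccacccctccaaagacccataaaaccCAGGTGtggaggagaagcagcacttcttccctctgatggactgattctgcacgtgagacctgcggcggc
Krt8 promoter, chr15:102004293-102004592, minus strand: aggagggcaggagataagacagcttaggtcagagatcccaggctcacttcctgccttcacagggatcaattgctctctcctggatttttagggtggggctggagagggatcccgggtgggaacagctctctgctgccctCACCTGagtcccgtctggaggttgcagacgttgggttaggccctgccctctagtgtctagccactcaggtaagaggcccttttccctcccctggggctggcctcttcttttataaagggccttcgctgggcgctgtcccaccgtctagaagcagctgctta

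Counting the transcription start as position 1 and the base before it as position -1, the E-boxes of Cldn4 began at positions -14 and 12. Those of the Cldn7 window began at -97 and -57, and those of Epcam at -187 and -19. Krt8 held its copy at -111, Krt7 at -44 and Krt18 at -214. The palindrome AACCGGTT, the letters of a grainyhead-like site, was in 0 of the 7 windows and in 0.1% of all promoters. GGGCGG or CCGCCC was in 4 of the 7 windows and 35.7% of all, and TATAAA or TTTATA in 1 window, that of Krt8, and 13.6% of all. These matches describe letters and not bound sites. Of the repressors, Zeb1 was at 39.97 ± 5.00 CPM over KO tumours against 27.97 ± 9.12 CPM over WT tumours (SD, n = 6 and 5), a log2 fold change of KO over WT (log2 change) of 0.51 with a standard error (SE) of 0.21 and an edgeR adjusted p of 0.166. The log2 changes were 0.37 for Zeb2, 0.37 for Snai1 and -0.02 for Snai2, and none of the 4 passed the threshold of an adjusted p under 0.05.

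Total counts per tumour lay between 16294128 and 31121422, at which 3 counts, the smallest level taken as seen, equalled 0.0887 to 0.25 CPM (counts on libraries brought to equal TMM-scaled size). WT replicate B had the highest share of ribosomal RNA genes, 6.39% of counts, against 0.241% to 1.40% in the other WT and 0.308% to 0.739% in the KO tumours. Deviation of gene levels also ran with exon length across genes (Spearman's rho, genes not being independent), at -0.497 in WT replicate A, -0.451 in WT B and -0.174 in WT C, but between 0.0955 and 0.366 in all other tumours. Pkn2 itself was at 80.1 to 108.0 CPM over KO tumours against 62.9 to 138.4 CPM over WT tumours (log2 change -0.002, edgeR adjusted p = 0.996), so that the genotype labels could not be checked by it. The tumours hold carcinoma cells with the gene, but the reason for the similar levels was not tested. For several results, values without WT replicate A or B are also given below.

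Levels of the 10 genes were first ordered per kilobase of exon. Krt18 was highest, at 1178 ± 447 CPM per kb over all tumours (SD, n = 11), followed by Krt8 at 822 ± 300, Krt19 at 414 ± 203, Cdh1 at 86.0 ± 32.8 and Krt7 at 69.2 ± 49.2 CPM per kb. Epcam followed at 26.3 ± 35.8, Mal2 at 10.6 ± 7.10, Cldn4 at 6.07 ± 10.7, Cldn7 at 5.68 ± 8.15 and Esrp1 at 0.281 ± 0.453 CPM per kb. Krt18, Krt8 and Krt19 thus headed the order, with Krt18 above Krt8 and Krt8 above Krt19 in 11 of 11 tumours. Exon length was the union over all annotated transcripts, 7049 bases for Krt7 against 1437 to 1958 for the other keratins. The place of Krt7 therefore depends on the length used. In CPM, not divided by length, Krt7 averaged 383 over KO and 614 over WT tumours, against 385 and 403 for Cdh1. Within a tumour, the log2 ratio of neighbours in this order was within its own SD for Cdh1 over Krt7 (0.64 ± 1.09), Epcam over Mal2 (0.86 ± 1.65), Mal2 over Cldn4 (1.85 ± 2.35) and Cldn4 over Cldn7 (-0.08 ± 1.18), and these neighbours did not differ beyond their spread. The plot of levels by tumour shows the same values on the log2 scale.

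**Figure D1:**
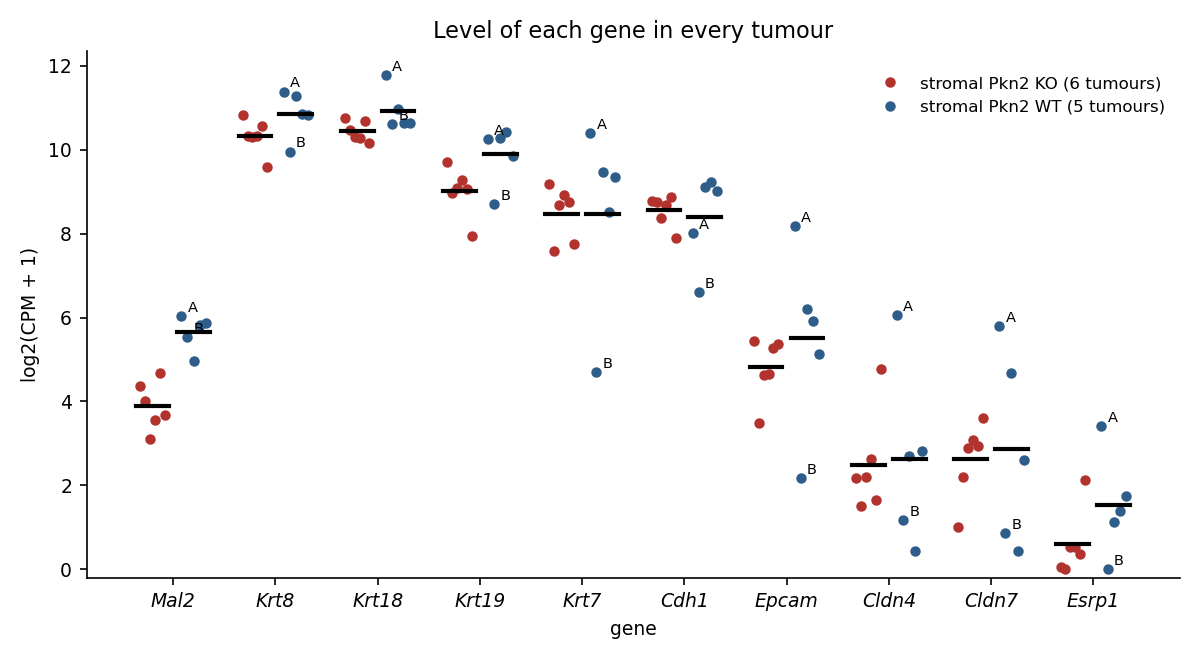
Level of each of the 10 genes in every tumour, as log2(CPM + 1) on the vertical axis, with 1 point per tumour (red, 6 KO; blue, 5 WT) and a black line at each group mean. Letters mark WT replicates A and B. Mal2 is the gene whose KO and WT points do not overlap, and for Epcam, Cldn4, Cldn7 and Esrp1 the WT points span the range of the KO points or more.

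Mal2 (ENSMUSG00000024479, chromosome 15, 54571192 to 54602847, plus strand, 4 exons, GRCm38) was at 19.7, 15.1, 7.65, 10.8, 24.7 and 11.8 CPM in KO replicates A to F. In WT replicates A to E it was at 64.7, 45.2, 30.3, 55.4 and 57.5 CPM. The lowest WT tumour, replicate C, thus stood above the highest KO tumour, replicate E, and every value rested on at least 220 raw counts. The mean was 14.95 ± 6.31 CPM over KO (SD, n = 6) against 50.6 ± 13.3 CPM over WT tumours (SD, n = 5), a log2 change of -1.76 (SE 0.29, interval of 2 SE -2.35 to -1.17) or 3.39-fold lower. Of all tested genes, 2.01% had every KO tumour below every WT tumour, and 166 genes, or 1.00%, had a log2 fold change as low or lower. Since Mal2 was chosen by this contrast, nothing is read from these shares. Its SE and interval come from the same contrast and are descriptions, not a test against 0.

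The 4 keratin genes were lower on average in KO tumours, with groups that overlapped for each. Krt8 (ENSMUSG00000049382, chromosome 15, 101996698 to 102004482, minus strand) was at 1826, 1277, 1251, 1288, 1516 and 773 CPM in KO replicates A to F. It stood at 2667, 991, 2479, 1828 and 1817 CPM in WT replicates A to E. WT replicates D and E lay beside KO A, WT B lay below all KO tumours but F, and the log2 change was -0.57 (SE 0.28, edgeR adjusted p = 0.230). Its type I partner Krt18 (ENSMUSG00000023043, chromosome 15, 102028180 to 102032027, plus strand) was at 1729, 1405, 1251, 1240, 1652 and 1148 CPM in KO tumours. WT replicates A to E held 3482, 1556, 1994, 1578 and 1594 CPM of Krt18. WT replicate A stood above all others, and the log2 change was -0.54 (SE 0.25, adjusted p = 0.205), or -0.26 without that tumour. Krt8 and Krt18 lie close together on chromosome 15 and kept a similar ratio in both groups, with Krt8 minus Krt18 at -0.12 ± 0.24 in KO and -0.06 ± 0.43 in WT tumours on the log2(CPM + 1) scale.

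Krt19 (ENSMUSG00000020911, chromosome 11, 100140810 to 100148665, minus strand), a keratin of pancreatic ducts, was at 831, 502, 546, 618, 537 and 245 CPM in KO replicates A to F. The WT values were 1223, 414, 1244, 1368 and 915 CPM in replicates A to E. WT replicates A, C, D and E exceeded every KO tumour while WT B fell below all but KO F, and the log2 change was -0.92 (SE 0.33, edgeR adjusted p = 0.128). Krt7 (ENSMUSG00000023039, chromosome 15, 101411043 to 101430313, plus strand) was at 575, 191, 409, 481, 428 and 214 CPM in KO tumours and at 1336, 24.9, 702, 362 and 646 CPM in WT tumours. WT replicates A and B were the highest and the lowest of all 11, and the log2 change of -0.68 (SE 0.63, adjusted p = 0.518) was well within that spread. It was -0.18 without WT A, -0.99 without WT B and 0.03 with the replicate letter as a block. Krt8 has an annotated pseudogene, Krt8-ps, and reads that match both equally well were not counted. Gm671, Gm36026 and Gm26663 overlap Krt7, Krt8 and Esrp1 on the opposite strand, and the alignment was strand-specific.

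Among the adhesion genes, Cdh1 had the estimate nearest to 0 and Epcam an estimate near that of Mal2 with a wider spread. Cdh1 (ENSMUSG00000000303, chromosome 8, 106603351 to 106670246, plus strand) was at 438, 427, 329, 408, 470 and 237 CPM in KO replicates A to F. In WT replicates A to E it was at 258, 96.9, 548, 596 and 517 CPM. WT replicates C, D and E stood above all KO tumours and WT B below them, and the log2 change was -0.07 (SE 0.38, edgeR adjusted p = 0.930, interval of 2 SE -0.82 to 0.68). Its sign was not stable, since the mean of log2(CPM + 1) was 0.16 higher in KO tumours. Epcam (ENSMUSG00000045394, chromosome 17, 87635979 to 87651129, plus strand) was at 42.4, 10.2, 23.7, 24.3, 37.9 and 40.5 CPM in KO tumours. Its WT values ran from 3.51 CPM in replicate B through 34.2, 59.5 and 72.2 CPM in E, D and C to 287 CPM in A. The log2 change was -1.62 (SE 0.72, edgeR adjusted p = 0.196), and -0.51 without WT replicate A.

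The claudins varied widely between tumours, and Esrp1 was near 0 in most. Cldn4 (ENSMUSG00000047501, chromosome 5, 134945119 to 134946934, minus strand) was at 1.86 to 5.24 CPM in KO replicates A to E and 26.4 CPM in KO F. WT replicates A to E held 65.4, 1.25, 5.50, 0.353 and 6.03 CPM. The log2 change of -1.15 (SE 1.07, edgeR adjusted p = 0.524) rested on WT replicate A, without which it was 1.10. Cldn7 (ENSMUSG00000018569, chromosome 11, 69964779 to 69967885, plus strand) was at 1.02, 3.62, 6.40, 7.48, 6.66 and 11.2 CPM in KO tumours and at 54.2, 0.834, 24.8, 0.353 and 5.11 CPM in WT tumours. WT replicates A and C were above every KO tumour and WT B and D below, with a log2 change of -1.50 (SE 0.95, adjusted p = 0.348), and -0.36 without WT replicate A.

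Esrp1 (ENSMUSG00000040728, chromosome 4, 11331933 to 11386783, minus strand) gave 1, 0, 13, 11, 7 and 84 raw counts in KO replicates A to F and 224, 0, 24, 42 and 80 in WT replicates A to E. The counts of 0 in KO B and WT B allow up to 0.105 and 0.25 CPM. In CPM the KO values ran from 0 to 3.39 with replicate F highest, and the WT values from 0 to 9.72 with replicate A highest. The log2 change was -1.97 (SE 1.14, edgeR adjusted p = 0.301), the lowest estimate of the 10 and the one with the widest error, and it moved to -0.80 without WT replicate A.

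Of the 9 genes other than Mal2, 0 passed the edgeR threshold of an adjusted p under 0.05 over all tested genes, against 0.0181% of all tested genes (3 of 16536). All 9 had a negative log2 change, with a median of -0.92, whereas the median over all tested genes was -0.026 and 52.0% were negative. This rested in part on WT replicate A. Without that tumour the 9 ran from -0.85 for Krt19 to 1.10 for Cldn4, with Epcam at -0.51 and Cldn7 at -0.36. Cdh1 moved the other way, to -0.19, but on means of log2(CPM + 1) over all tumours it was 0.16 higher in KO. At an unadjusted p under 0.05 there were 3 of the 9, Krt19, Epcam and Krt18, all lower in KO tumours, against 15.5% of all tested genes. That count rested on single tumours, being 1 without WT replicate A, WT C or any one of KO B to E, 4 without KO A or WT D, 5 without WT B and 4 without WT A and B together. DESeq2 and each of the other alternatives also called 0 of those tested. Groups overlapped in CPM for all 9. The 9 genes were read in the same tumours and are not independent of each other.

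**Figure D2:**
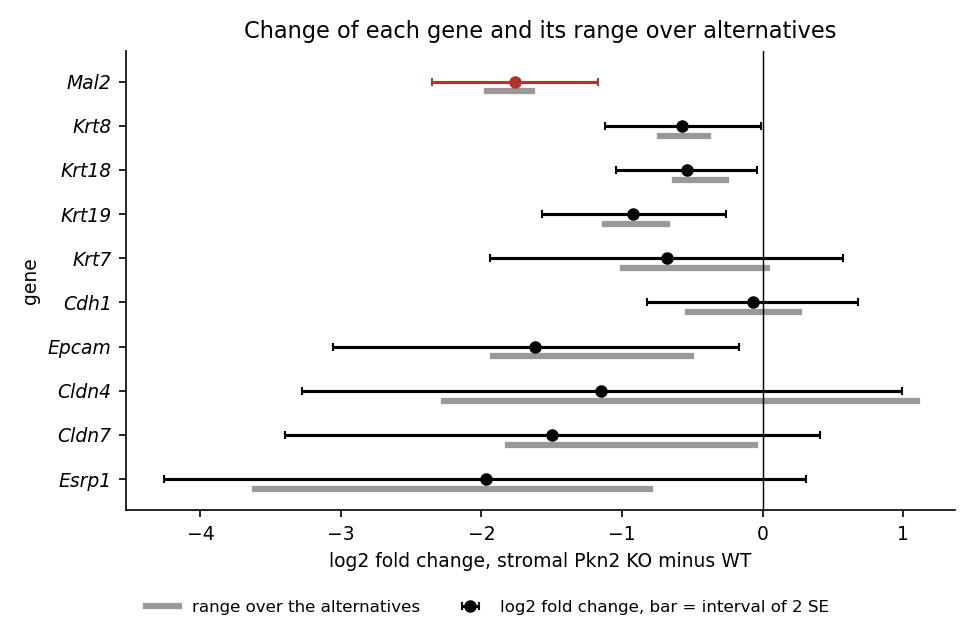
Log2 fold change of each gene, KO minus WT, on the horizontal axis, with a bar of 2 standard errors to each side and, in grey below it, the range of the estimate over the alternatives, including those that leave out each tumour in turn. Mal2 lies at -1.76 with a range of -1.96 to -1.64, while Cldn4, Krt7 and Cdh1 have ranges that cross 0. Mal2 was chosen by this contrast, so its bar and range are descriptions and not tests.

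Mal2 was then set against the other 9 genes within each tumour. Their mean log2(CPM + 1) was 6.37 ± 0.24 over KO (SD, n = 6) against 6.79 ± 1.24 over WT tumours (SD, n = 5), from 5.92 to 6.58 in KO and at 8.36, 4.98, 7.31, 6.42 and 6.89 in WT replicates A to E. KO tumours were thus alike in this mean and lay inside the WT range, and the difference of -0.42 was smaller than the WT spread. It was -0.03 without WT replicate A and -0.87 without WT B. Taking the median over the 9 genes in place of the mean turned it to 0.42.

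Relative to that mean, Mal2 stood at -2.06, -1.91, -3.22, -2.93, -1.78 and -2.91 on the log2 scale in KO replicates A to F, and at -2.32, 0.56, -2.34, -0.60 and -1.01 in WT replicates A to E. WT replicates B, D and E exceeded every KO tumour, whereas WT A and C lay within the KO range. The difference between group means was -1.32, with KO at -2.47 ± 0.62 (SD, n = 6) and WT at -1.15 ± 1.23 (SD, n = 5), and the groups overlapped. No gene of all those tested had every KO tumour below every WT tumour on this scale (0.0%), and the median difference over all tested genes was 0.43. The difference for Mal2 ran from -1.62 without WT replicate A to -0.90 without WT B, and was -1.15 without both. As a description, Mal2 relative to the other 9 genes was lower in KO than in WT tumours by more than the KO SD and by about the WT SD.

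**Figure D3:**
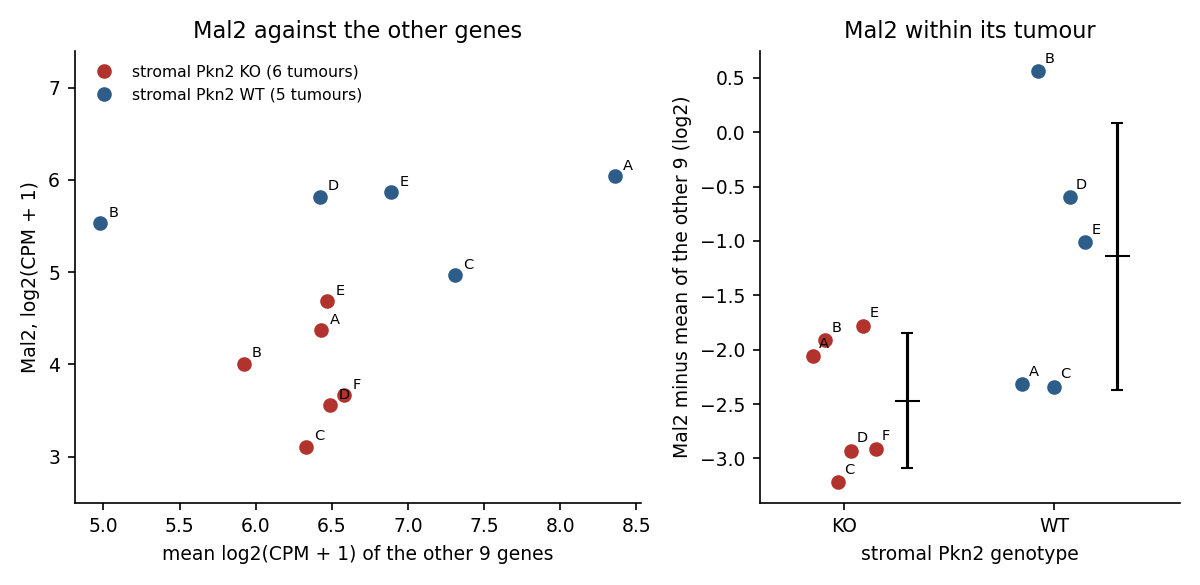
Left, Mal2 against the mean of the other 9 genes, both as log2(CPM + 1), with 1 lettered point per tumour (red, 6 KO; blue, 5 WT). Right, Mal2 minus that mean in each tumour, with the group mean and SD as black bars; WT replicates A and C sit among the KO tumours at -2.32 and -2.34, and WT B is highest at 0.56.

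Against single genes, Mal2 had a lower mean in KO tumours for 9 of 9 partners, and 2 of the 9 differences did not overlap between groups. Mal2 minus Cdh1 was -5.25 to -4.19 in KO and -4.13 to -1.08 in WT tumours, a difference of -1.91, and 0.0423% of tested genes had no such overlap in that direction. Mal2 minus Krt18 was -7.18 to -6.00 in KO and -5.99 to -4.77 in WT tumours, a difference of -1.26, with 0.0121% of tested genes. All 9 differences hold the same Mal2 values, by which it was chosen, and are not independent. Nothing is therefore read from these shares or from the count of 9. The highest KO and the lowest WT tumour nearly met in both pairs. For the remaining partners the differences were -0.81 for Esrp1, -0.86 for Krt19, -1.04 for Epcam, -1.21 for Krt8, -1.49 for Cldn7, -1.60 for Cldn4 and -1.74 for Krt7. The difference was thus smallest against Esrp1 and Krt19, and the edgeR estimate for Esrp1 was itself lower than that for Mal2. By edgeR, Epcam at -1.62, Cldn7 at -1.50 and Cldn4 at -1.15 lay nearer to Mal2 at -1.76 than these differences of mean log2 values. The wide intervals of 2 SE of Epcam, Cldn7 and Cldn4 held -1.76, as did those of Krt7 and Esrp1. Those of Cdh1, Krt8, Krt18 and Krt19 did not. Mal2 was chosen by that estimate, and its own error is left out of such a comparison. Nothing is therefore read from these intervals.

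**Figure D4:**
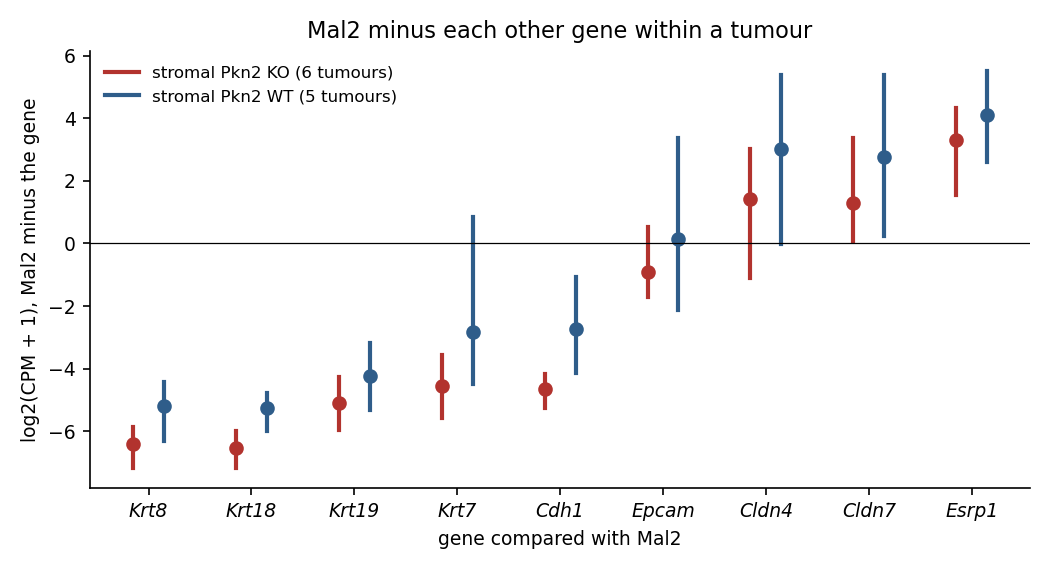
Mal2 minus each of the other 9 genes within a tumour, in log2(CPM + 1), with the group mean as a point and the lowest to highest tumour as a line (red, 6 KO; blue, 5 WT). The KO mean is lower for every partner, and the lines do not overlap for Krt18 and Cdh1.

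Co-variation among the 9 genes was uneven across tumours. Over 36 pairs, the Pearson correlation of log2(CPM + 1) over 11 tumours was positive in 32, with a median of 0.56, and without WT replicates A and B it was positive in 22 with a median of 0.28. Genotype means were left in, and 7 pairs had an adjusted permutation p of r under 0.05. Among them, Epcam and Krt7 gave r = 0.86 (permutation p = 0.00122, adjusted 0.0155), but 0.55 without WT A and B. Their rho was 0.68 (permutation p = 0.0247, adjusted 0.0808). Krt8 and Krt19 were closest (r = 0.94, permutation p = 2e-05, adjusted over 36 pairs 0.00072; rho = 0.91, permutation p = 0.00027, adjusted 0.00972), with r = 0.90 without the 2 tumours farthest from the median of Krt8. Krt8 and Krt18 gave a lower value (r = 0.80, permutation p = 0.00143, adjusted 0.0155; rho = 0.85, permutation p = 0.00139, adjusted 0.0250), with r = 0.73 without the farthest tumours. The 2 claudins were high and low in the same tumours (r = 0.82, permutation p = 0.00172, adjusted 0.0155; rho = 0.84, permutation p = 0.00215, adjusted 0.0258), with r = 0.73 likewise. Cldn4 and Esrp1 gave r = 0.80 (permutation p = 0.00494, adjusted 0.0296; rho = 0.72, permutation p = 0.0146, adjusted 0.0782), but 0.19 without WT A and KO F, so that this relation rested on those tumours. Cdh1 and Cldn4 gave the lowest value, r = -0.20 (permutation p = 0.542, adjusted 0.650; rho = -0.23, permutation p = 0.502, adjusted 0.670), and -0.74 without WT B and KO F.

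Mal2 followed none of the 9 closely once genotype means were subtracted. Over the 11 tumours its deviations had r = 0.47 with those of Krt18, 0.29 with Krt8 and -0.19 with Cldn7, the highest, the next and the lowest of the 9. With genotype means left in, the highest were r = 0.688 with Krt18, 0.605 with Krt19 and 0.571 with Krt8. The lowest was -0.035 with Cdh1. Within the 6 KO tumours, Mal2 and the mean of the 9 had r = 0.00 (exact permutation p = 0.999; rho = -0.03, exact permutation p = 1.0). Among 14888 genes with a mean of at least 1 CPM, those most like Mal2 over all 11 tumours, genotype difference included, were Ints5 (r = 0.89), Fkbp4 (0.89), Pla2g1b (0.88), Cyb561 (0.88) and Dmac2 (0.88). For deviations from the genotype means they were Ap3s2 (0.91), Abhd13 (0.83), Spcs2-ps (0.82), Zfp553 (0.81) and Taf5l (0.79). The mean of the 9 was best followed by Chtop (0.92), Sfn (0.91), Oit1 (0.91), Sgsm1 (0.90) and Slc45a3 (0.89). The points share libraries that differ in depth and in trend with gene length, and these values are descriptions over 11 tumours.

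Further genes of the same cellular functions were taken from 6 lists with 121 entries, of which 103 were tested. None passed the edgeR threshold, 37 had a higher and 66 a lower mean in KO tumours, and the median log2 change was -0.13. At an unadjusted p under 0.05, 3 were higher and 5 lower, against 8.57% and 15.5% of all tested genes in these directions. In the list of MAL family, MAL2 partner and apical transport genes, 10 of 30 were higher and 20 lower. Tpd52l2, a TPD52 family gene, was at 83.8 ± 3.35 CPM over KO tumours against 104.2 ± 20.2 CPM over WT tumours (SD, n = 6 and 5; log2 change -0.31, SE 0.14, edgeR adjusted p = 0.201). Crb3, an apical polarity gene, gave -0.63, and the membrane linker Ezr 0.31, with neither past the threshold.

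Of other tight junction genes, 5 were higher and 11 lower, with a median of -0.14. Cldn6 and Cldn18 gave log2 changes of -0.91 (SE 0.49) and -0.85 (SE 0.43), and the scaffold Tjp1 0.52 (SE 0.31), with edgeR adjusted p-values from 0.239 to 0.310. Adherens junction and desmosome genes were split 8 to 8, and Nectin4, a nectin of adherens junctions, gave 0.98 (SE 0.34, edgeR adjusted p = 0.125). Among 5 other keratin genes that could be tested, Krt222 gave 1.80 (SE 0.41, edgeR adjusted p = 0.0786) at 0.487 ± 0.124 CPM over KO tumours against 0.134 ± 0.0589 CPM over WT tumours (SD, n = 6 and 5). Epithelial transcription factors and splicing regulators gave 7 higher and 9 lower, with Klf5 at -0.69 (SE 0.31, edgeR adjusted p = 0.195) and Sox9, a duct factor, at -0.84 (SE 0.43, adjusted p = 0.246).

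Other epithelial surface, protease and adaptor genes gave 5 higher and 15 lower of 20 tested, with a median of -0.31, the lowest median of the 6 lists. Lcn2, which encodes an iron-scavenging lipocalin also made by neutrophils, was at 87.3 to 261 CPM over KO tumours against 34.2 to 104 CPM over WT tumours (log2 change 1.5, SE 0.36, edgeR adjusted p = 0.0847). S100a14, an epithelial calcium-binding protein gene, was at 10.7 ± 10.6 CPM over KO tumours against 64.5 ± 107.5 CPM over WT tumours (SD, n = 6 and 5; -2.59, SE 1.01, adjusted p = 0.152), with a single WT value of 253 CPM. The serine protease gene Tmprss4 gave -1.49 (SE 0.56, adjusted p = 0.143). DESeq2 called Lcn2, Krt222 and Nectin4 higher, with adjusted p-values of 0.00306, 0.0223 and 0.0469, while it called 3.21% of all genes it tested higher. The call of Krt222 rests on WT values near the floor, and nothing is read from it.

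Genes around Mal2 on chromosome 15 were examined next. Within 1 Mb of its start 29 genes were annotated and 10 tested, of which 3 were lower and 7 higher in KO tumours, with a median log2 change of 0.15 and 0 past the edgeR threshold. At an unadjusted p under 0.05 there were 2 of the 10, against 24.0% of all tested genes in either direction. Enpp2, which encodes the lysophospholipase autotaxin and starts 267.7 kb from Mal2, was at 46.3 ± 32.1 CPM over KO tumours against 7.80 ± 5.06 CPM over WT tumours (SD, n = 6 and 5; log2 change 2.56, SE 0.57, edgeR adjusted p = 0.0786). Mrpl13, a mitochondrial ribosomal protein gene at 962.9 kb, gave -0.85 (SE 0.28, adjusted p = 0.114). Ccn3, nearest on one side, and Tnfrsf11b, which was the only tested gene of the window on the other side, gave 0.18 (SE 0.38) and 0.56 (SE 0.43), with adjusted p-values of 0.803 and 0.431. Taf2, the next beyond Enpp2, gave 0.13 (SE 0.20, adjusted p = 0.711).

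Markers of other cells in the tumour pieces were measured beside these results. Acinar genes of normal pancreas summed to 8.38 to 708 CPM over KO tumours against 13.8 to 2118 CPM over WT tumours, 4 of the 11 were tested and all 4 were lower, with a median log2 change of -1.76 and 0 past the threshold. Cela1, an elastase gene, was at 11.9 ± 9.35 CPM over KO tumours against 46.3 ± 31.9 CPM over WT tumours (SD, n = 6 and 5; -1.96, SE 0.55, edgeR adjusted p = 0.0938). By tumour the sums were 8.93, 13.7, 8.38, 12.6, 708 and 10.9 CPM in KO replicates A to F and 213, 93.8, 31.3, 13.8 and 2118 CPM in WT replicates A to E, with Cpb1, Cel and Pnlip at 0 in at least 1 tumour of each group. Mal2 was highest among KO tumours in replicate E, which also had the highest KO acinar sum. KO A followed with Mal2 at 19.7 CPM and an acinar sum of 8.93 CPM. In WT D, Mal2 was at 55.4 CPM with an acinar sum of 13.8 CPM. Over the 11 tumours, Mal2 had r = 0.74 with Cela1 and 0.54 with the trypsinogen gene Prss2, and 0.34 and 0.57 once genotype means were subtracted. Pla2g1b, which encodes the phospholipase secreted by pancreatic acinar cells and was among the genes most like Mal2, had r = 0.88, or 0.79 for deviations, and a log2 change of -1.92. The part of acinar tissue in the level of Mal2 was not tested.

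Islet genes summed to 0.691 to 84.2 CPM over KO tumours against 0.167 to 332 CPM over WT tumours, with 1 of 8 tested. Mesothelial genes, from a tissue that also makes keratins 7, 8, 18 and 19, summed to 150 to 411 and 157 to 466 CPM, with 4 of 5 higher. Leukocyte genes were higher in 9 of 10 and fibroblast genes in 8 of 10, with 0 past the threshold in each and 6 leukocyte genes higher at an unadjusted p under 0.05, against 8.57% of all tested genes. Their sums ran from 2203 to 3661 CPM over KO tumours against 1643 to 4046 CPM over WT tumours for leukocyte genes, and from 4559 to 9681 and 2640 to 9569 CPM for fibroblast genes. Endothelial genes were higher in 6 of 8, genes of normal duct in 3 of 8 and mesenchymal genes in 6 of 9. The part of these other cells in the levels of the 10 genes was not tested.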

How the data were processed

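Bulk RNA of 11 tumours was sequenced from strand-specific NEB libraries. Per the study's methods and processing notes, the authors trimmed reads with Trimmomatic, aligned them to GRCm38 (mm10) with HISAT2 2.1.0 and counted unique alignments of mapping quality over 10 on exons with HTSeq 0.11.2, which drops reads shared with near-identical copies. They deposited raw counts per gene, used for all tests, and a normalised signal, equal to the counts divided by DESeq2 size factors (0.514 to 1.42).

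Gene identifiers were matched to GENCODE M21. The design compared KO with WT in edgeR 4.0.16 (R 4.3.3), quasi-likelihood, TMM, filterByExpr, without covariates, with Benjamini-Hochberg adjustment over 16536 genes at 0.05. SE is the absolute log2 fold change over the square root of F. CPM uses TMM-scaled totals, and log values a pseudocount of 1 CPM. Level ratios used 0.01 CPM per kb. Correlations used 100000 permutations. The procedure was tested on simulated data. No 2 libraries agreed within sampling noise. Nothing in the labels says more of the replicates than 1 tumour each, so p-values and SE measure the spread between tumours. The floors of 3 counts cover counting error only.

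The 10 genes and all lists were chosen with earlier results of these data known, and 3 list entries that are older symbols matched none. Named genes are the 10, in each other list those past the threshold or the 2 with the smallest p in each direction, those most like Mal2 or the mean of the 9, and the nearest tested neighbours of Mal2. The text gives examples of them. The replicate letters of KO and WT mark different animals, and same-lettered tumours did not deviate together throughout. Alternatives were DESeq2 1.42.0, RLE scaling, 2 other filters, other pseudocounts and scalings, a ribosomal RNA covariate, a replicate block and leaving out tumours. A gene length offset, a subset of 6 genes and all alternatives for the neighbours of Mal2 were chosen after seeing the data.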

Additional observations from a re-analysis of the deposited data

Results flagged for a closer look

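In 24 groups of 5 or 6 tumours, formed from the 10 genes and the scores on them, 2 values stood apart from the remaining tumours, where chance would give about 1.2. Both belonged to KO replicate F. Cldn4 was at 4.78 on the log2(CPM + 1) scale there, against 1.52 to 2.64 in the other KO tumours. Esrp1 was at 2.13, against 0.00 to 0.54. Islet genes summed to 84.2 CPM in the same tumour, against 0.691 to 2.28 CPM in the other KO tumours. Among WT tumours the islet sum was highest in replicate E, at 332 CPM, with Cldn4 at 2.81 and Esrp1 at 1.75 on the log2 scale. WT A, with an islet sum of 66.3 CPM, had Cldn4 at 6.05 and Esrp1 at 3.42. The part of islet genes in these values was not tested. Without KO replicate F the log2 fold change was -2.27 for Cldn4 and -3.61 for Esrp1.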

How the results depend on the processing

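The difference of Mal2 kept its direction in all 20 alternatives, at -1.96 to -1.64 on the log2 scale, and 0 of the other 9 genes passed the threshold in all 19 run for that count. Mal2 was chosen by this contrast and its groups did not overlap in CPM. Leaving out tumours could thus not turn its sign, and nothing is read from its steady direction. Mal2 relative to the mean of the 9 ran from -2.16, with the median in place of the mean, to -0.90, and from -1.62 to -0.90 over fits that each left out 1 tumour. The difference in the mean of the 9 itself ran from -0.87 to -0.03 over those fits and was 0.42 with the median. Cdh1 was positive with the replicate block (0.26) and ran from -0.32 to 0.12 over fits that left out 1 tumour, as did Cldn4 from -2.27 to 1.10, with 0.83 without WT A and B together. Of the 6 further lists, DESeq2 called 3 genes, the gene length offset 2 and fits that left out 1 tumour 0 to 3 (3 without WT E, 1 without WT D). Of the neighbours of Mal2, DESeq2 called 1, the length offset 1 and those fits 0 to 2 (2 without WT D or WT E). The causes were not tested. Over all genes edgeR called 3, DESeq2 1495, the unfiltered fit 45, the length offset 345 and the replicate block 8, and fits that left out 1 tumour 0 to 1856, the most without WT E.

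Deviations of same-lettered tumours correlated at 0.163, 0.024, -0.172, 0.130 and 0.064 for letters A to E, and 1 of 5 tumours matched its own letter best, so the letters do not pair the samples. With the replicate block, which leaves out KO F, Mal2 was at -1.77 and 0 of the 9 passed, with Krt7 at 0.03, Krt8 at -0.39, Krt18 at -0.42, Krt19 at -0.68, Epcam at -0.87, Cldn4 at -0.55, Cldn7 at -0.05 and Esrp1 at -3.03. Esrp1 rests on few counts in most tumours and the claudins on values that vary widely between tumours. Differences within 2 SE were not detectable in them, and the filter of 10 counts in every tumour left these 3 genes untested.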
